A study of Rattus norvegicus with 6 samples.

Results

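The mitochondrial respiratory chain subunits encoded in the nucleus were examined in liver RNA of rats killed after isoflurane or after CO2/O2 anaesthesia. Members were all non-control probes whose RefSeq accession belongs to a rat gene with a symbol of the Ndufa, Ndufb, Ndufc, Ndufs or Ndufv series, Sdha to Sdhd, Uqcr, Cyc1, Cox4 to Cox8 or Atp5. The rule used names and no measured value. It took 131 of 61657 probes and 76 of 15284 named genes, namely 75 protein-coding genes and the transcribed pseudogene Cox6c-ps1. RefSeq lists 110 protein-coding rat genes under the same rule. Those without a named probe here included Cyc1, Ndufs6, Ndufa3, Ndufa8, Ndufa13, Cox7a1 and Atp5mc3.

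The isoflurane group held 3 rats and the CO2/O2 group held 3 rats, each on its own array. All 6 were male Sprague-Dawley rats of the stock Crl:CD(SD), aged 9 weeks, and all received corn oil at 5 mL/kg/day. The labels conflict on how long the oil was given, with 3 days in the design text and 9 weeks in the treatment protocol. Both groups were anaesthetised before death, so no level without anaesthesia was measured.

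Respiratory complexes I to IV pass electrons from NADH and succinate to oxygen. Complexes I, III and IV also pump protons across the inner mitochondrial membrane, and complex V uses the proton gradient to make ATP. Most subunits are encoded in the nucleus and imported, and a small set is encoded in mitochondrial DNA. Hepatocytes are rich in mitochondria and draw on the chain for gluconeogenesis, urea synthesis and fatty acid oxidation. Volatile anaesthetics such as isoflurane inhibit complex I, and in mice loss of Ndufs4, an accessory subunit of that complex, makes animals hypersensitive to them. The comparison therefore asks whether transcripts of the chain, and of complex I in particular, differed between the 2 ways of anaesthesia.

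Promoters of such genes are known for sites of NRF1 and of ETS family factors such as GABP. RefSeq promoters on GRCr8 were at hand for 66 of the 76 members, and the 250 bases before each start were searched on both strands. The NRF1 motif, GCGCA and GCGC with any 1 base between them, was present in 10 of 66 member promoters (15.2%), against 3.75% of all 33469 promoters and 8.38% of the 9152 promoters of coding genes tested on these arrays. The ETS motif CCGGAAG was present in 19 of 66 (28.8%), against 7.27% and 14.8% in the same sets. The SP1 motif GGGCGG was present in 24 of 66 (36.4%), against 30.5% and 54.9%, while the YY1 motif AAGATGGCG and the ERR motif CAAGGTCA were each found in 1 member promoter. Atp5me was the 1 member that held both the NRF1 and the ETS letters, and 38 held neither. A match is a run of letters and not a shown binding site. The windows that follow are of Sdha and Uqcrc1, to which the results return, and of Ndufs8 and Atp5f1a. The latter are a core gene of complex I and the alpha subunit gene of complex V. The other members with the NRF1 letters had log2 differences, isoflurane minus CO2/O2, of only -0.08 to 0.05. A link between motif and difference was not tested. Capitals mark the NRF1 letters in Sdha and Uqcrc1 and the ETS letters in Ndufs8 and Atp5f1a, and the matches in all but Sdha read on the strand opposite to the one printed.
Sdha, chr1:30764444-30764536, plus strand: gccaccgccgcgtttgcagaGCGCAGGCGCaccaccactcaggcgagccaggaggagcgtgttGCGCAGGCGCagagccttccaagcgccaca
Uqcrc1, chr8:118468139-118468188, plus strand: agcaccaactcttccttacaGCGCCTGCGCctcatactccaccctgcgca
Ndufs8, chr1:210573699-210573730, minus strand: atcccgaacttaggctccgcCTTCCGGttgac
Atp5f1a, chr18:73567457-73567503, plus strand: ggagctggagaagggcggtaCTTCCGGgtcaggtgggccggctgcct

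Signal is given as log2 intensity relative to the 75th percentile of the same array, so that 0 is that percentile, and every difference is isoflurane minus CO2/O2 on that log2 scale. Between 53.4% and 62.3% of probes per array were well above background. The arrays lay on 1 slide, with the CO2/O2 rats at its first 3 places and the isoflurane rats at the next 3, so place and group run almost together. All 9 hepatocyte markers were well above background on all 6 arrays. The 10 measured Kupffer cell markers all had negative differences (median -0.35), with list means of -0.22 to -0.10 in isoflurane rats and -0.04 to 0.36 in CO2/O2 rats. All 8 measured lymphocyte markers were also negative (median -0.33). Their list means were 0.014, -0.029 and -0.53 in isoflurane rats and 0.31, 0.23 and 0.0051 in CO2/O2 rats, so the groups overlapped slightly. Of 5 measured erythroid markers, 4 were negative (median -0.37), and the list means of the groups overlapped. Hepatocyte markers had a median of 0.05 with 6 of 9 positive. Stellate and smooth muscle markers had a median of 0.01 with 4 of 7 positive. The part of these cells in the results was not tested. In bulk tissue, fewer cells of a type and less RNA per cell cannot be told apart.

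Of the 131 member probes, 127 were tested, and 75 of the 76 member genes had a tested probe. All 75 were well above background on all 6 arrays, so none entered through 1 group alone. Of the 127 tested probes, 125 were so on all 6 arrays. The others, a second Cox8b probe and a dim Cox6a2 probe, were tested through the CO2/O2 group alone. The member gene without a tested probe, the testis isoform Cox8c, did not reach the well-above-background mark on any array at either of its 2 probes. Past an adjusted p of 0.05 in limma there were 0 member probes, where the background was 0.00866% of all tested probes, and 0 member genes, where it was 0.0% of 10609 genes. At an unadjusted p of 0.05 there were likewise 0 member genes and 0 member probes, against a background of 7.58% of genes, 2.72% higher and 4.85% lower after isoflurane. The smallest adjusted p of a member gene was 0.671 in limma, for Uqcrc1.

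The differences of the chain genes clustered near 0. The median over the 75 genes was -0.0056, with 36 positive and 39 negative, against a median of -0.0108 over all genes tested. In 61 of the 75 genes the difference lay within 0.1 of 0. The median size of a difference, without its sign, was 0.041 for members. It was 0.105 for all genes tested and 0.086 for all genes averaging above the 75th percentile. The groups did not overlap for 3 genes that were higher in isoflurane rats, Sdha, Uqcrc1 and Cox8a, where 6.01% of all genes were so. They did not overlap for 4 that were lower, Ndufa7, Ndufb2, Ndufb5 and Cox6c, where 8.16% of all genes were so, and Ndufb5 and Cox6c are named after their values were seen. The sum, 7 of 75 genes, stands beside 14.2% of all genes. With place on the slide as a covariate the member median was -0.117, where that of all tested probes was -0.0057. Centring each array on its median gave -0.065 for members and -0.061 for all tested probes.

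**Figure D1:**
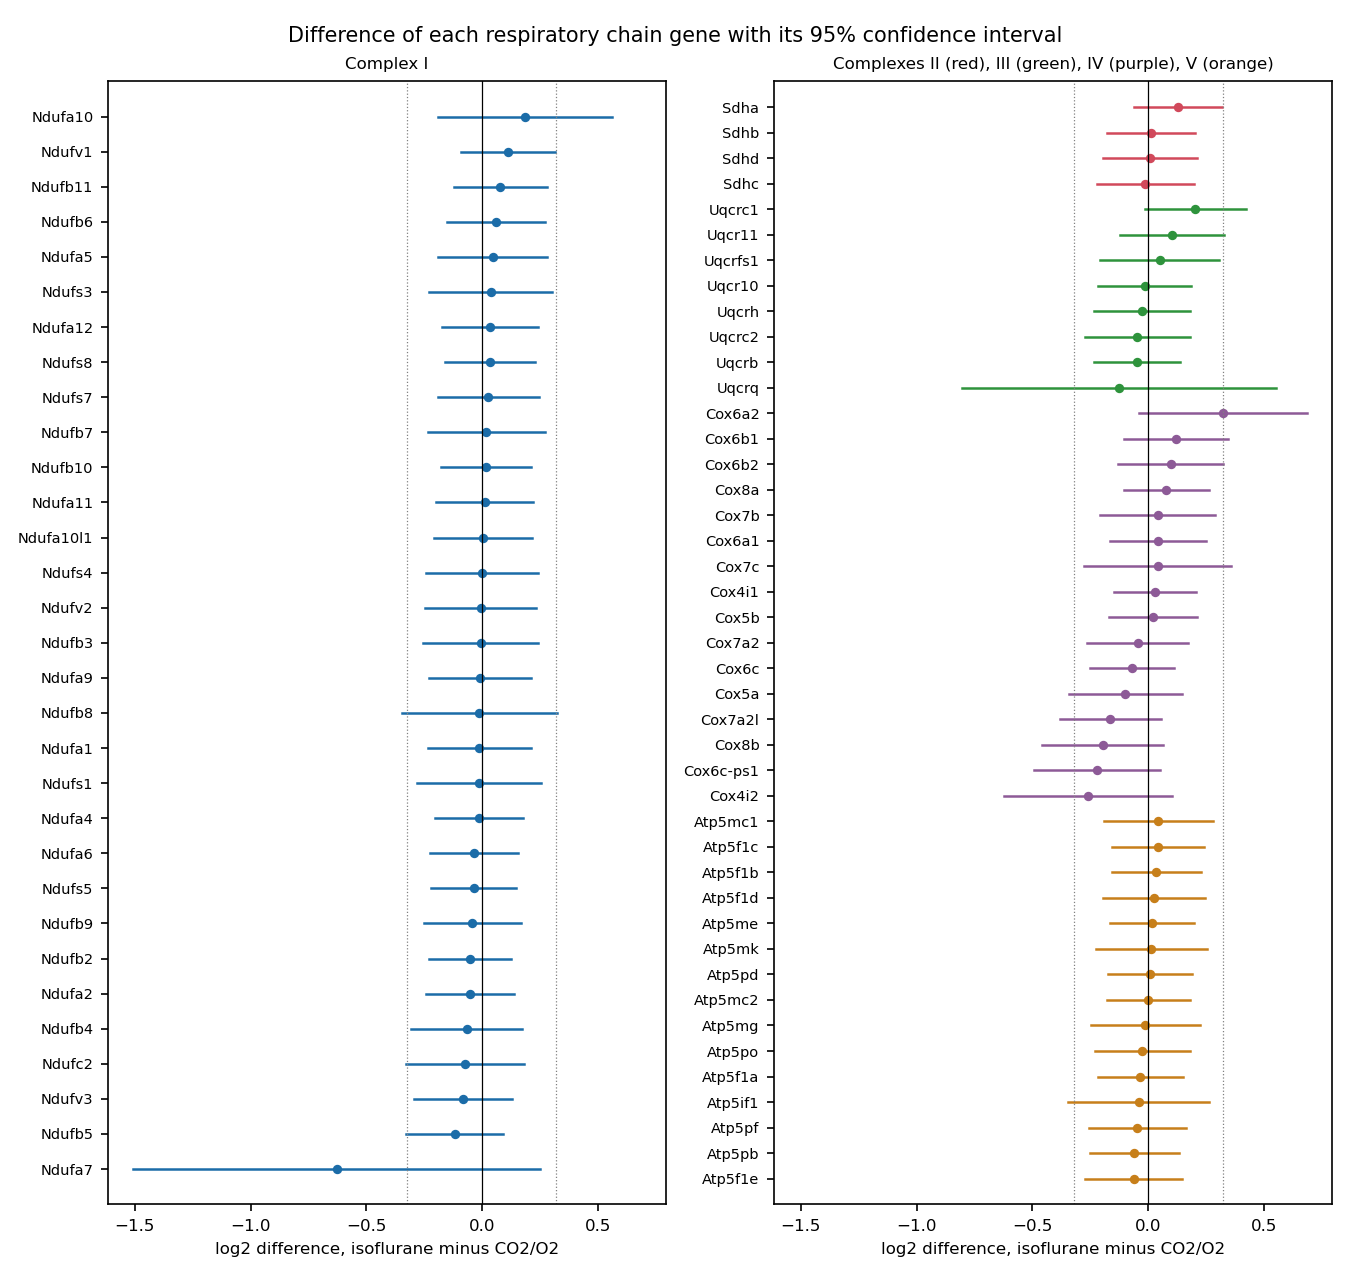
Difference of each of 74 tested genes, isoflurane minus CO2/O2 in log2 units, as a point with its 95% confidence interval from limma (n = 3 rats per group), for complex I at the left and complexes II to V at the right. Dotted lines mark 1.25-fold in either direction. All intervals drawn include 0, and Ndufa7 and Uqcrq have the widest.

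Complex I, the NADH dehydrogenase, was measured at 32 genes, of which 13 had positive and 19 had negative differences, with a median of -0.0080. Ndufa4, counted here by its name, is now known as a partner of complex IV and had a difference of -0.01. Its catalytic core takes electrons from NADH and carries them through flavin and iron-sulfur centres to ubiquinone. Ndufv1, which binds the flavin and accepts electrons from NADH, had 5.85, 5.88 and 5.95 in isoflurane rats, against 5.70, 5.77 and 5.86 in CO2/O2 rats. One CO2/O2 value lay among the isoflurane values, and the difference was 0.11 ± 0.084 (SE, adjusted p = 0.790 in limma). The second Ndufv1 probe gave 0.15 with no overlap between the groups.

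Further core genes lay closer to 0. Ndufs7 and Ndufs8 carry iron-sulfur centres next to the ubiquinone site, and their differences were 0.03 and 0.03. The second Ndufs7 probe gave -0.22. Ndufv2, Ndufs1 and Ndufs3, further iron-sulfur or scaffold subunits of the same arm, had differences of -0.01, -0.01 and 0.04.

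Ndufs4, the accessory subunit tied to anaesthetic sensitivity in mice, had 3.74, 3.81 and 4.0 in isoflurane rats, against 3.78, 3.85 and 3.91 in CO2/O2 rats. The CO2/O2 values lay inside the range of the isoflurane values. The group means were both 3.85, and the 95% interval of the difference ran from -0.24 to 0.24. As folds, that interval is 0.846 to 1.18. A second and dimmer Ndufs4 probe gave -0.08.

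Among the accessory genes, Ndufa10 had the largest positive difference of the complex and Ndufa7 the largest negative one. Ndufa10 had 3.51, 3.52 and 4.0 in isoflurane rats, against 3.40, 3.47 and 3.59 in CO2/O2 rats, and its difference was 0.19 ± 0.16 (SE, adjusted p = 0.810 in limma). Isoflurane replicate 3 stood above the other 5 rats, and without it the difference was 0.023.

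Ndufa7, an accessory subunit on the matrix side of the complex, had the widest spread of any member. It had -1.60, -0.37 and -0.19 in isoflurane rats, against -0.11, -0.12 and -0.04 in CO2/O2 rats. The groups did not overlap, with isoflurane replicate 1 far below the other 5 rats. The difference was -0.63 ± 0.36 (SE, adjusted p = 0.733 in limma), and without isoflurane replicate 1 it was -0.19. It had 1 probe, so no second probe could be set beside it. With slide row as a block the isoflurane arm rested on that same rat and the difference was -1.51 (adjusted p = 0.140 in limma).

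Ndufb2, a subunit of the membrane arm, had the narrowest spread of any member. It had 5.58, 5.56 and 5.60 in isoflurane rats, against 5.64, 5.61 and 5.64 in CO2/O2 rats. The groups did not overlap, yet the difference was -0.05 ± 0.073 (SE, adjusted p = 0.898 in limma). That SE is from the moderated fit, which shares spread across genes, and the SD within groups at this gene was 0.0172. Ndufb5, of the same arm, had 5.45, 5.56 and 5.55 in isoflurane rats, against 5.59, 5.59 and 5.73 in CO2/O2 rats. All isoflurane values were lower, and the difference was -0.12 ± 0.086 (SE).

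Complex II, succinate dehydrogenase, links the chain to the citric acid cycle and was measured at all 4 of its genes. Differences were positive for 3 and negative for 1, with a median of 0.011 that was -0.049 when arrays were centred on their medians. Sdha, the flavoprotein that oxidises succinate, had 6.47, 6.58 and 6.58 in isoflurane rats, against 6.41, 6.39 and 6.44 in CO2/O2 rats. All 3 isoflurane values were the higher ones, and the difference was 0.13 ± 0.079 (SE, adjusted p = 0.743 in limma). The second Sdha probe gave 0.23 and also showed no overlap (adjusted p = 0.661 in limma). With place on the slide as a covariate the difference of the first probe was 0.020.

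The other subunits of complex II showed no such split. Sdhb, the iron-sulfur subunit, had 4.88, 4.90 and 4.90 in isoflurane rats, against 4.89, 4.80 and 4.94 in CO2/O2 rats, and its difference was 0.01 ± 0.079 (SE). Sdhc and Sdhd, the membrane anchors that hold the ubiquinone site, had differences of -0.01 and 0.008. All 4 intervals of the complex lay within 1.25-fold.

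Complex III, the ubiquinol to cytochrome c reductase, was measured at 8 genes, 3 with positive and 5 with negative differences and a median of -0.020. Uqcrc1, a core protein of its matrix side, had 4.35, 4.47 and 4.50 in isoflurane rats, against 4.15, 4.24 and 4.32 in CO2/O2 rats. All isoflurane values were higher, although isoflurane replicate 1 and CO2/O2 replicate 3 nearly met. The difference was 0.20 ± 0.090 (SE), which is 1.15-fold with a 95% interval of 0.991 to 1.34 (adjusted p = 0.671 in limma). The second Uqcrc1 probe gave 0.18, again without overlap. Leaving out each rat in turn kept the difference between 0.16 and 0.25, while place on the slide as a covariate gave -0.035.

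Uqcrc2, the partner core protein, had 5.07, 5.13 and 5.21 in isoflurane rats, against 5.13, 5.10 and 5.31 in CO2/O2 rats, with a difference of -0.05 ± 0.094 (SE). Uqcrfs1, the Rieske iron-sulfur protein that takes electrons from ubiquinol, had 5.60, 5.49 and 5.79 in isoflurane rats, against 5.53, 5.54 and 5.66 in CO2/O2 rats, and a difference of 0.05. The groups overlapped for both. Uqcrb, Uqcrh, Uqcr10 and Uqcr11, small subunits of the complex, had differences of -0.05, -0.03, -0.02 and 0.10.

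Uqcrq, another small subunit, varied more between rats than every member but Ndufa7. It had 0.61, -0.08 and 0.35 in isoflurane rats, against -0.11, 0.59 and 0.78 in CO2/O2 rats. The groups overlapped fully, with the lowest value in CO2/O2 replicate 1. The difference was -0.13 with a 95% interval of -0.80 to 0.55, so this gene carries little information on the comparison. Its second probe did not reach that mark on any array.

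Complex IV, cytochrome c oxidase, was measured at 16 genes, counting the pseudogene Cox6c-ps1 by its name. It had 9 positive and 7 negative differences and a median of 0.026, which was -0.034 when arrays were centred on their medians. Several of its subunits exist as a general form and a tissue form, so the isoforms were read in pairs by their differences, as levels of separate probes cannot be compared. The general form Cox4i1 had 7.53, 7.56 and 7.60 in isoflurane rats, against 7.53, 7.53 and 7.54 in CO2/O2 rats. Its difference was 0.03 with a 95% interval of -0.15 to 0.21. Cox4i2, the form known from lung and from hypoxia, had 2.24, 1.74 and 1.84 in isoflurane rats, against 2.31, 2.19 and 2.09 in CO2/O2 rats. Isoflurane replicate 1 lay among the CO2/O2 values, and the difference was -0.26 ± 0.15 (SE, adjusted p = 0.733 in limma). The second Cox4i2 probe gave 0.02, and place on the slide as a covariate turned the first to 0.20.

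Cox6a1, the general form, had a difference of 0.04, and Cox6a2, the form of heart and skeletal muscle, had the largest positive difference of any member. Cox6a2 had -1.49, -1.23 and -1.36 in isoflurane rats, against -1.71, -1.92 and -1.42 in CO2/O2 rats. CO2/O2 replicate 3 lay among the isoflurane values, and the difference was 0.32 ± 0.15 (SE, adjusted p = 0.682 in limma). Its 2 other probes gave 0.28 and -0.25, so the 3 probes did not share a sign. The probe at -0.25 was well above background in 1 isoflurane rat and in 3 CO2/O2 rats. It was thus tested through the CO2/O2 group alone, where it was higher. Of 12 striated muscle markers, 7 stayed below that mark on every array, among them Acta1, Myh4 and Pvalb, and the 4 tested had a median of -0.12.

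Cox8a, the general form of subunit VIII, had 6.98, 7.0 and 7.01 in isoflurane rats, against 6.87, 6.91 and 6.97 in CO2/O2 rats. The groups did not overlap, and the difference was 0.08 ± 0.076 (SE, adjusted p = 0.838 in limma). Cox8b, the form of muscle and brown fat, had -3.38, -3.63 and -3.56 in isoflurane rats, against -3.20, -3.44 and -3.35 in CO2/O2 rats. The groups overlapped at a difference of -0.20. The second Cox8b probe gave -0.37 but was well above background in only 2 of 3 isoflurane rats. It was thus tested through the CO2/O2 group alone, where it was higher, and adds no support. Of 5 brown fat markers, Ucp1 and Elovl3 stayed below the background mark on every array, and the 3 tested had a median of -0.12.

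The general form Cox6b1 and the testis form Cox6b2 had differences of 0.12 and 0.10. Cox7a2 and Cox7b, whose tissue partners had no named probe, had -0.05 and 0.04, and Cox7a2l, which joins complexes III and IV, had -0.16 at its brighter probe and 0.03 at the other. Cox6c had 6.67, 6.72 and 6.63 in isoflurane rats, against 6.73, 6.75 and 6.74 in CO2/O2 rats. All isoflurane values were lower by a small margin, and the difference was -0.07 ± 0.075 (SE). Its pseudogene Cox6c-ps1 gave -0.22, and the signal of a gene and of near-identical copies cannot be told apart here.

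Complex V, the ATP synthase, had the narrowest range of differences of the 5. At the probe that stands for each gene, all 15 had differences within 0.1 of 0, from -0.06 for Atp5f1e to 0.04 for Atp5mc1, with 8 positive and 7 negative. The median was 0.0019, which was -0.057 when arrays were centred on their medians. Atp5f1b, the beta subunit that holds the catalytic sites, had 5.02, 5.00 and 5.12 in isoflurane rats, against 5.04, 4.98 and 5.02 in CO2/O2 rats. The groups overlapped, and the 95% interval of the difference was -0.16 to 0.23. Atp5f1a, the alpha subunit, had 8.0, 8.02 and 8.03 in isoflurane rats, against 8.01, 8.03 and 8.11 in CO2/O2 rats. Its difference was -0.03 with a 95% interval of -0.22 to 0.15.

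The 5 genes of the catalytic head had a median difference of 0.026, with 3 positive, and the 10 measured genes of the ring, the stalk and the inhibitor had a median of -0.0046, with 5 positive. Atp5f1c and Atp5f1d, the gamma and delta subunits of the rotor, had 0.04 and 0.03. Atp5mc2 of the proton-carrying ring had 6.94, 6.98 and 7.0 in isoflurane rats, against 6.98, 6.94 and 6.99 in CO2/O2 rats. The 6 values were nearly interleaved, and the difference was 0.0019. Its 2 other probes gave 0.15 and 0.11, both with no overlap and with higher isoflurane values (adjusted p = 0.715 and 0.786 in limma). Atp5pb and Atp5pd of the peripheral stalk had -0.06 and 0.008. Intervals lay within 1.25-fold for 14 of the 15 genes, the exception being Atp5if1, which inhibits the enzyme.

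**Figure D2:**
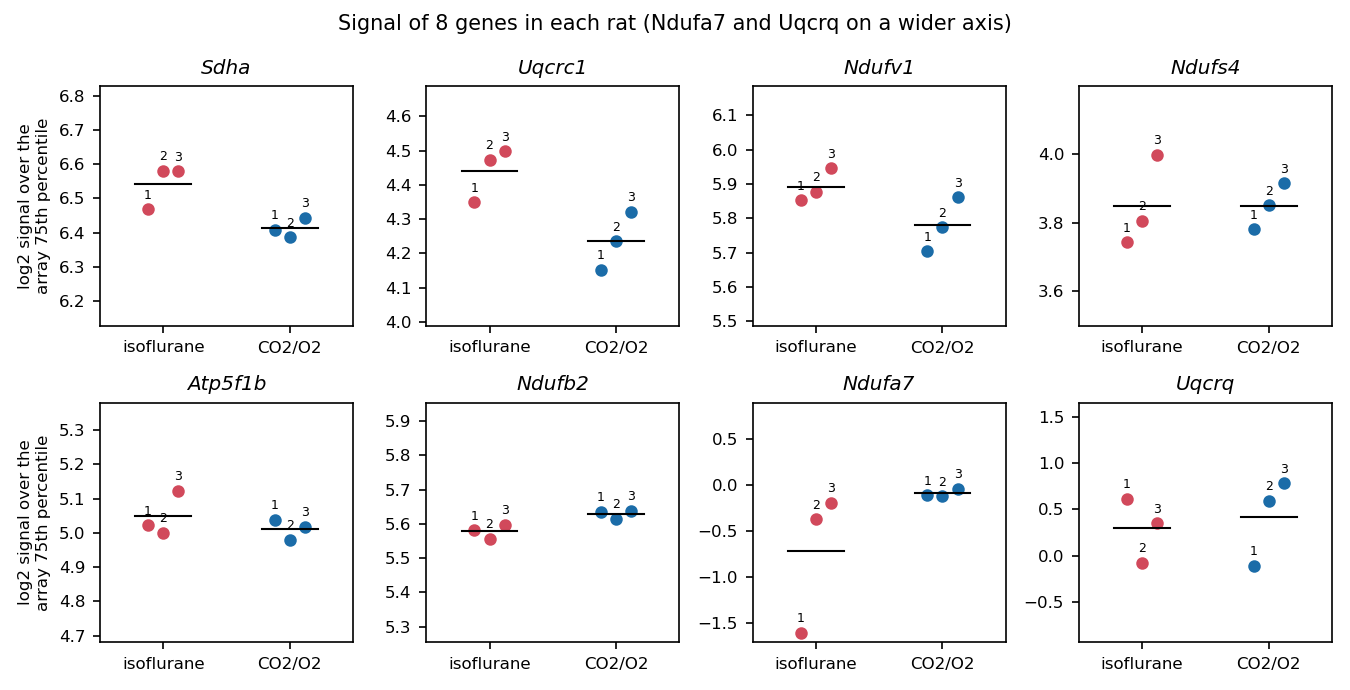
Signal of 8 genes in each rat, in log2 units over the array's 75th percentile, isoflurane at the left and CO2/O2 at the right of each panel, with replicate numbers beside the points and a line at each group mean (n = 3). Axes share 1 width except those of Ndufa7 and Uqcrq, which are wider. Sdha, Uqcrc1, Ndufb2 and Ndufa7 do not overlap between groups, and isoflurane replicate 1 lies far below the other rats for Ndufa7.

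Differences between rats within a group were as large as those between groups. The mean level of the complex I genes, relative to each gene's mean over the 6 rats, was -0.08, 0.01 and 0.04 in isoflurane rats, against -0.02, -0.03 and 0.08 in CO2/O2 rats. Ndufa7 weighs on the mean of isoflurane replicate 1, where the median over the same genes was -0.030. For complex II the means were -0.04, 0.04 and 0.06 in isoflurane rats, against -0.02, -0.08 and 0.04 in CO2/O2 rats. For complex V they were -0.05, -0.006 and 0.04 in isoflurane rats, against -0.007, -0.06 and 0.07 in CO2/O2 rats. CO2/O2 replicate 3 had the highest mean for complexes I, III, IV and V, and isoflurane replicate 3 for complex II.

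**Figure D3:**
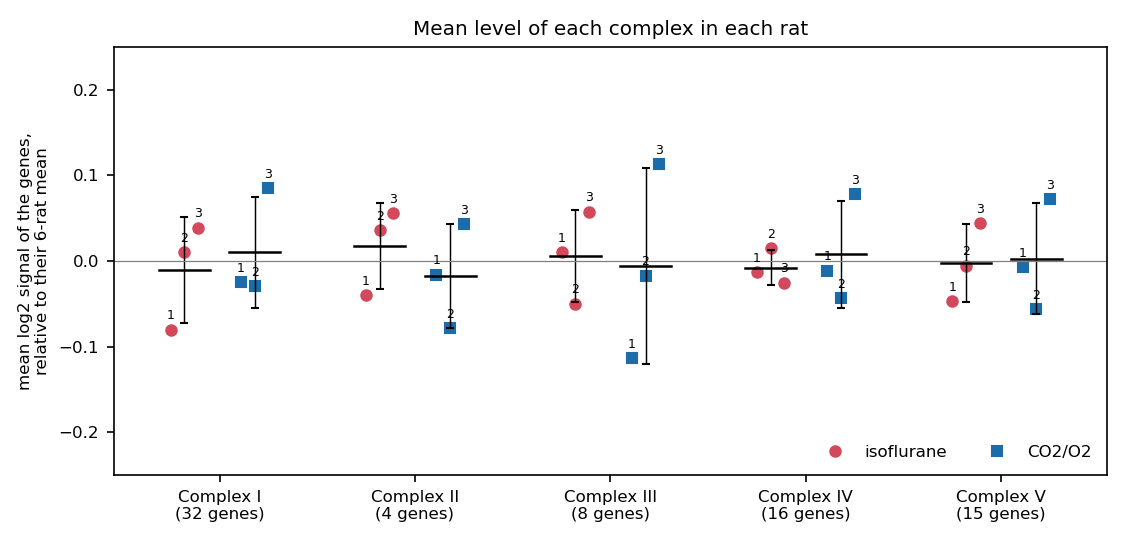
Mean log2 signal of the tested genes of each complex in each rat, relative to the mean of the 6 rats, with isoflurane rats as circles left of CO2/O2 rats as squares, and lines and bars for the group mean and SD (n = 3 each). The groups overlap for all 5 complexes, and CO2/O2 replicate 3 stands highest for complexes I, III, IV and V. The low complex I point of isoflurane replicate 1 includes Ndufa7.

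The same rat stood out gene by gene. CO2/O2 replicate 3 had the highest value for 34 of the 75 genes and the lowest for 1, and it exceeded the 6-rat mean in 69. Across all genes it had the highest value for 18.2%. The other counts of highest values were 2, 13 and 19 genes in isoflurane replicates 1 to 3, against 5 and 2 in CO2/O2 replicates 1 and 2. The median deviation of the members in CO2/O2 replicate 3 was 0.07, against 0.021 for all genes in that rat. Without CO2/O2 replicate 3 the median difference of the members was 0.036, and those of all 5 complexes were positive, between 0.022 and 0.044.

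The chain genes varied less between rats of a group than the median gene on the array. Their median pooled SD within groups was 0.0765, against 0.147 over all genes tested. Most members lie in the brighter range, where spreads are smaller, and 71 of the 75 averaged above the 75th percentile. Among those 71 the median SD was 0.0752, against 0.117 for the 6057 genes in that range. That range is wide, and members were not matched to other genes by level within it. Lists near the chain had median SDs of 0.0875 for electron carriers and other ubiquinone-linked enzymes and 0.0993 for assembly factors. Those for biogenesis regulators and for the citric acid cycle and pyruvate dehydrogenase were 0.103 and 0.136. A pooled SD below 0.1 was found in 52 of the 75 genes (69.3%), where 28.2% of all genes were so.

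**Figure D4:**
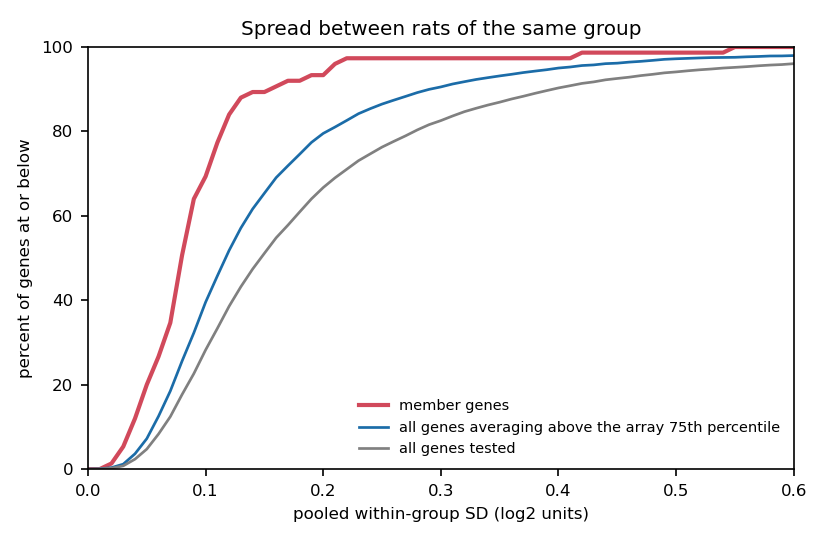
Cumulative percent of genes (vertical axis) at or below each pooled within-group SD in log2 units (horizontal axis), for the 75 member genes, for all genes averaging above the array 75th percentile and for all 10609 genes tested. At an SD of 0.1 the curves stand at 69.3% for members, 39.5% for the brighter genes and 28.2% for all genes.

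By complex, the median SD was 0.0804 for complex I, 0.0578 for II, 0.0859 for III, 0.0907 for IV and 0.0678 for V. The largest SDs were 0.544 for Ndufa7, 0.415 for Uqcrq, 0.211 for Ndufa10 and 0.201 for Cox6a2. The smallest were 0.0172 for Ndufb2, then those of Cox4i1, Atp5pd and Atp5mc2, which reached 0.030 at most. Across the members the median SD was 0.0681 in isoflurane rats and 0.0762 in CO2/O2 rats, and it was higher in isoflurane rats for 35 of 75 genes (46.7%). Over all genes the medians were 0.146 in isoflurane rats and 0.117 in CO2/O2 rats, and 60.9% were higher in isoflurane rats.

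As far as variation between rats goes, the intervals bound how large a difference could have gone unseen. They do not cover an effect of place on the slide, which runs almost with the groups. They also hold for scaling to the 75th percentile alone. Centring arrays on their medians moved single members by up to 0.059, and 26 of 75 changed sign. The 95% interval of the difference lay wholly within 1.25-fold for 57 of 75 members (76.0%), where 29.7% of all genes were so, and within 1.5-fold for 71 members, where 71.8% were so. In the brighter range, where levels were again not matched, the share within 1.25-fold was 80.3% of members, against 40.9% of genes. By complex it was 27 of 32 genes for I, 4 of 4 for II, 5 of 8 for III, 7 of 16 for IV and 14 of 15 for V. The median half-width of the interval was 0.212 for members, against 0.291 for all genes, so smaller differences could not be resolved with 3 rats per group.

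Probes of the same gene were compared where there were several. Of 37 such genes, 24 had 1 sign at all tested probes, and the median gap between the extreme probes of a gene was 0.057. That gap exceeded the median size of the member differences, 0.041. The share over all genes was not computed, so the 24 are not read as agreement. They include Cox8b, whose second probe was tested through the CO2/O2 group alone. Sdha and Uqcrc1 were the 2 of the 37 genes whose groups did not overlap at every probe. The share over all genes with several probes was not computed for this either, and probes of a gene read the same rats. It is therefore not read as a result about these 2 genes.

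The genes that build or feed the chain gave the same count, with 0 past the adjusted threshold in limma in each list, against 0.0% of all genes. The 37 measured assembly factors split into 18 positive and 19 negative differences, with a median of -0.022. Sdhaf2, which attaches flavin to Sdha, had 3.82, 3.88 and 3.77 in isoflurane rats, against 4.03, 4.01 and 3.96 in CO2/O2 rats. All isoflurane values were lower, and the difference was -0.18 ± 0.078 (SE, adjusted p = 0.669 in limma). Lyrm7, which helps insert the Rieske protein into complex III, had a difference of 0.33 ± 0.15 (SE, adjusted p = 0.689 in limma) with overlapping groups.

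The 16 measured regulators of mitochondrial biogenesis had 10 positive and 6 negative differences, with a median of 0.045. Polg, the polymerase of mitochondrial DNA, had 3.23, 3.30 and 3.30 in isoflurane rats, against 2.99, 3.18 and 3.02 in CO2/O2 rats. Its values did not overlap, and the difference was 0.22 ± 0.087 (SE, unadjusted p = 0.045, adjusted p = 0.655 in limma). Pprc1, a coactivator related to PGC-1alpha, had -0.34 ± 0.17 (SE) with overlap. Nrf1 and Gabpa, which encode the factors whose motifs were sought in the promoters, had differences of 0.11 and -0.04, and Tfam, which packages mitochondrial DNA, had 0.03.

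The 23 measured electron carriers and other enzymes linked to ubiquinone had 10 positive and 13 negative differences, with a median of -0.031. Among them Cycs, which carries electrons between complexes III and IV, had -0.03, and Ndufab1, the acyl carrier subunit of complex I that the naming rule did not take, had 0.02. Coq6, of ubiquinone synthesis, had 0.23 ± 0.12 (SE), and Ucp2, an uncoupling protein, had -0.25 ± 0.14 (SE). Of the 22 genes of the citric acid cycle and pyruvate dehydrogenase, 9 were positive and 13 negative, with a median of -0.035. Pdp2, a phosphatase that activates pyruvate dehydrogenase, had 3.05, 3.47 and 3.09 in isoflurane rats, against 3.49, 3.54 and 3.73 in CO2/O2 rats. All isoflurane values were lower, with isoflurane replicate 2 close to the CO2/O2 values, and the difference was -0.39 ± 0.14 (SE, unadjusted p = 0.033, adjusted p = 0.637 in limma). Pdk2, a kinase that inactivates the same enzyme, had 0.23 ± 0.12 (SE) with overlapping groups.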

How the data were processed

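Liver RNA from 6 rats was measured on 6 1-colour arrays, with 1 rat per array and 3 rats per group. Per the labels' protocols, labelled Cy3 cRNA was made from 0.2 ug of RNA per rat. Agilent Feature Extraction 10.7 is the scanner software named in the submitters' processing notes. The deposited spot values are intensity values on a linear scale, corrected for background per the file headers and not scaled between arrays. The authors' deposited value table holds a ratio on a linear scale. In every column this ratio equals processed intensity over a single divisor near the 75th percentile of that array, probes were not centred, and column medians lay between 0.0900 and 0.0917 in isoflurane arrays and between 0.0864 and 0.0881 in CO2/O2 arrays. The divisor follows a choice not given in the sources used here. No library depth exists for arrays, and their number limits the precision.

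From log2 intensity, the array's own 75th percentile over 61657 non-control probes was subtracted. Spots flagged by the software as outliers (177 in all, 0 on member probes) were dropped, and 0 spots were saturated. Testing took the 34637 probes that were well above background in every rat of either group. Differences came from lmFit and eBayes in limma 3.58.1 under R 4.3.3. Benjamini-Hochberg adjustment was over all tested probes, with a threshold of adjusted p 0.05. SEs and 95% intervals came from the moderated fit. The fit was tested on simulated data, with changes larger than any member difference of the main fit and no effect of place on the slide. Recovery of smaller changes was not simulated. Each gene took the values of its brightest tested probe, by the mean of the 6 arrays. Probe accessions, without versions, were matched to RefSeq genes of GRCr8, which named 27460 probes and left 34197 unmatched. The arrays' headers name another build, so GRCr8 positions are given for promoters alone. Motifs were sought with Python 3.11.15, and tables were handled with pandas 2.3.3 and numpy 2.4.6. Genes named in the text were those past the threshold, the extremes of each complex by moderated t, the core and isoform lists, the extremes of spread, and the extremes of each further list. The values of 1 member gene are not reported here, though it is in the counts. The members, lists and tests were chosen with earlier results of these data known. Alternatives covered background correction, scaling, the filter on dim probes, outlier spots, the variance prior, the replicate number, the place on the slide, the probe that stands for a gene, and each rat left out in turn.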

Additional observations from a re-analysis of the deposited data

How the results depend on the processing

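The count of members past the threshold stayed at 0, for probes and for genes, under every alternative run. The median difference of the members moved furthest with place on the slide as a covariate, to -0.117 for all members, -0.112 for complex I, -0.081 for II, -0.184 for III, -0.063 for IV and -0.132 for V. The median of all tested probes with that covariate was -0.0057. Place runs almost with the groups, and the cause was not tested. Median centring gave -0.065 for all members, -0.049 for complex II, -0.034 for IV and -0.057 for V, and it moved the median of all probes to -0.061. With slide row as a block, where the isoflurane arm rests on 1 rat, complex IV gave -0.023. Leaving out each rat gave medians of -0.025 to 0.036 for all members, -0.031 to 0.037 for I, -0.026 to 0.040 for II, -0.048 to 0.036 for III, -0.017 to 0.044 for IV and -0.035 to 0.025 for V, and a median SD of 0.0675 to 0.0834. Single members changed sign in 26 of 75 cases under median centring, 31 with the place covariate, 12 under normexp background correction and 0 with the authors' deposited table. Over the named members, 699 alternative values lay within 1 SD of the reported one and 75 did not. With the replicate number as a block the count was 0, the median difference -0.0056 and the smallest adjusted p of a member 0.641 in limma. Deviations of rats with the same number correlated at 0.11, 0.021 and 0.060 across probes, so the numbers were not read as pairs. Signals near background limit Cox8b and the dimmer probes of Cox6a2.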

Other observations

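Some members gave different answers at different probes, and they are named here after their values were seen. Ndufv3, an accessory subunit of the NADH-binding arm of complex I, had 4 tested probes whose differences ran from -0.08 to 0.29. Ndufb4 had 3 probes between -0.07 and 0.12, and Ndufc2 had 2 probes at -0.07 and 0.11. Atp5mc2 had 3 probes between 0.0019 and 0.15. The widest gap, 0.58, was that of the 3 Cox6a2 probes, and its low end was the probe tested through the CO2/O2 group alone. Ndufa10l1, an Ndufa10 relative, had 5 probes between -0.04 and 0.07. The transcript region read by each probe was not analysed here.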
